A study of Homo sapiens with 30 samples.

Results

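The interferon response genes described here are 35 genes whose transcripts are known to rise after interferon, chosen as a named list of symbols and read from every probe set annotated to exactly 1 of them. Of the 35 genes, 34 had such a probe set, 59 probe sets in all among the 54675 of the array, and they were read as 34 of 19775 genes. STAT2 had none in the annotation used and was not analysed here. The cells were A375, an established human melanoma cell line, treated with 650 nM MLN4924 or with the vehicle, 0.065% DMSO, and collected after 1, 2, 4, 8 or 24 h. Each of the 10 groups had 3 arrays, with DMSO arrays at every time. The labels name no interferon treatment in any group. MLN4924 (pevonedistat) blocks the enzyme that activates the ubiquitin-like protein NEDD8 and thereby the cullin-RING ubiquitin ligases. The comparisons ask how far the interferon response genes of these cells differed between MLN4924 and DMSO at each time, and how they moved with time within each treatment.

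Type I interferons bind the receptor made of IFNAR1 and IFNAR2, whose kinases JAK1 and TYK2 start the signal. A factor that contains STAT2 and IRF9 then binds the interferon-stimulated response element (ISRE) before genes such as IFIT1, MX1 and ISG15, while interferon gamma acts through the GAS element. Many of the induced proteins are antiviral effectors, and many cells transcribe a part of the set at a low level without added interferon. One branch is a conjugation system like that of NEDD8: ISG15 is a ubiquitin-like protein that UBE2L6 and HERC5 attach to other proteins and USP18 removes.

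Each signal below is the quantile-normalized signal of the 1 probe set that stands for a gene. A log2 change is a difference of mean log2(signal + 32) between groups of 3 arrays, with its SE and Benjamini-Hochberg adjusted p from limma, fitted over all genes, and a gene is called at an adjusted p under 0.05. The added 32 understates the change of dim genes. The labels do not say whether the 3 arrays of a group came from separate cultures, so the p-values reflect the scatter of these arrays alone, and that scatter may be technical. Arrays of a group correlated at 0.9833 to 0.9898 over all probe sets, none were identical, and the ACTB 3′ to 5′ signal ratio, a sign of RNA integrity, lay between 1.144 and 1.744. HMOX1, the stress-induced haem oxygenase, averaged 1809, 3734 and 2307 with MLN4924 at 2, 4 and 8 h, against 254, 208 and 135 with DMSO. Of 9 measured melanocyte markers, SOX10, MITF, S100B, S100A1 and CSPG4 had a mean signal of at least 100, and the pigment genes PMEL, MLANA, TYR and TYRP1 did not. None of the measured lymphocyte or endothelial markers had a mean of 100 over all arrays, although CD79A reached a group mean of 109.8 (DMSO 8 h) and PECAM1 one of 107 (DMSO 24 h). PTPRC stayed between 1.79 and 24.8 and CD14 between 0.967 and 17.2 over all arrays. Individual markers of other cell types were above 100, namely LYZ, COL1A1, HBB, KRT14, KRT8 and KRT18.

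The promoters of the members show what the genes share beside their name. RefSeq windows (build GRCh38.p14) of 250 bases before to 50 after the start were found for 28 of the 34 members. The windows were searched on both strands for GAAA, any 2 bases and again GAAA, an ISRE-like core, and for TTCNNNGAA, a GAS-like core that reads the same on both strands. The ISRE-like core stood in the windows of 19 of the 28 members (67.9%), against 4.38% of 27305 genes. Its first 9 bases, GAAANNGAA, stood in those of 20 members (71.4%), against 9.86% of genes. The GAS-like core stood in those of 11 members (39.3%), against 9.38% of genes. The 250 bases before the start are printed for ISG20, IFITM1 and IFI35, the 3 members with the largest decreases at 24 h on the log2(signal + 32) scale, and for TAP1, the member with the largest increase. IFIT1, dimmer and so more affected by the added 32, follows in the shorter stretches. Sequences run 5′ to 3′ on the strand of the gene, and capitals mark the ISRE-like core, or in IFI35 the GAS-like core.
ISG20, chr15:88638766-88639015, plus strand: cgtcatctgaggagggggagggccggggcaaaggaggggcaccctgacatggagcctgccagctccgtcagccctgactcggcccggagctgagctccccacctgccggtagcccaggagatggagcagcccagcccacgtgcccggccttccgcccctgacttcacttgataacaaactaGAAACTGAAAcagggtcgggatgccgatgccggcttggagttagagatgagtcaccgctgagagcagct
IFITM1, chr11:313790-314039, plus strand: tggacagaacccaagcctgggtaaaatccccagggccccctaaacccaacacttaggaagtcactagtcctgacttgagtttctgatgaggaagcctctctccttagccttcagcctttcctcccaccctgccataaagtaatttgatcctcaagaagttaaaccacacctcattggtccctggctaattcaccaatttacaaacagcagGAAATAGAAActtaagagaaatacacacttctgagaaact
IFI35, chr17:43006534-43006783, plus strand: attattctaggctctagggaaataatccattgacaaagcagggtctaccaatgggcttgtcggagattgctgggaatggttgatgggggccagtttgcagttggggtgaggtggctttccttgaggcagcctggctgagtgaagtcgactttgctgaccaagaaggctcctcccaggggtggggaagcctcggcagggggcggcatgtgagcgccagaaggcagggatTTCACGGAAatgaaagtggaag
TAP1, chr6:32853705-32853954, minus strand: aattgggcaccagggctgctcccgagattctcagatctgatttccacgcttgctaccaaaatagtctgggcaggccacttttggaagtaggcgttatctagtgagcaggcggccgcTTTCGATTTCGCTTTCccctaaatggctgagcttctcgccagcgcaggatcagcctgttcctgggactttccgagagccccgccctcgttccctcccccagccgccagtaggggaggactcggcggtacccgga
In TAP1 a pair of matches overlap and share part of the capitals. IFITM1 has another ISRE-like match that spans its start, and this one overlaps a GAS-like match. The IFI35 window holds no ISRE-like core.

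Shorter stretches of 30 bases around the first ISRE-like core are printed for other members that differed between treatments at 24 h, so that the spacing and orientation can be compared.
ISG15, chr1:1013374-1013403, plus strand: catgcctcggGAAAGGGAAAccgaaactga
IFIT1, chr10:89392497-89392526, plus strand: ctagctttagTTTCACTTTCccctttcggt
IFIT3, chr10:89327831-89327860, plus strand: agccgttaggTTTCATTTTCctcctcccaa
BST2, chr19:17405741-17405770, minus strand: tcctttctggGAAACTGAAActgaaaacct
IFI44, chr1:78649761-78649790, plus strand: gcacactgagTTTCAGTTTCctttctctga
PARP9, chr3:122564322-122564351, minus strand: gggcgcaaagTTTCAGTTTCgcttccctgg
HERC5, chr4:88456984-88457013, plus strand: ctcattacagTTTCCTTTTCcttttcgatt
The core read in the direction of transcription in ISG15 and BST2 and on the opposite strand in the other 5 stretches. It stood before members that were lower at 24 h and before HERC5 and TAP1, which were higher. The windows of IFIT5, MX1, OAS3, IFIH1, RSAD2, IFI6, IFI27, IFI44L and PARP14, not called at 24 h, held it as well. The windows of OAS1, HERC6, IFI35 and SP110, also called at 24 h, held none, and neither did those of UBE2L6, IRF1, IRF9, IFI16 and XAF1. No window was found for IFIT2, MX2, OAS2, OASL, USP18 and IRF7. A match of these letters is a description of the sequence and not a bound site.

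The members were set against genes that a melanoma cell should not transcribe. Of 30 such tissue-restricted genes, 22 were measured, with mean signals of 2.03 to 55.87 and a median of 10.43. A mean of at least 100 over the 30 arrays was taken as well expressed. By this threshold 14 members were well expressed, with means between 110.1 and 1083: IFI16, ISG20, IFIT5, UBE2L6, MX2, IFI44, SP110, OAS3, IFI35, IFIT3, IFI6, TAP1, IRF1 and IFITM1. The other 20 are called near background, with means between 2.926 and 99.99, and some of them, from IRF7 (60.38) upwards, lay above the range of the tissue-restricted genes. IFITM1 (110.1) lay just inside the threshold and PARP9 (99.99) just outside. The erythroid marker HBB, which is not in the tissue-restricted list, averaged 141, above the well-expressed IFITM1, IRF1, TAP1 and IFI6. Signals of different probe sets do not compare transcript levels between genes. The best known marker genes of an interferon response were among the dim ones: MX1 averaged 34.08, RSAD2 16.72, IFI27 8.281 and IFI44L 2.926, while IFIT1 averaged 45.14 and ISG15 89.96. With a threshold of 50 in place of 100, 23 members were well expressed, and with 200, 7.

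**Figure D1:**
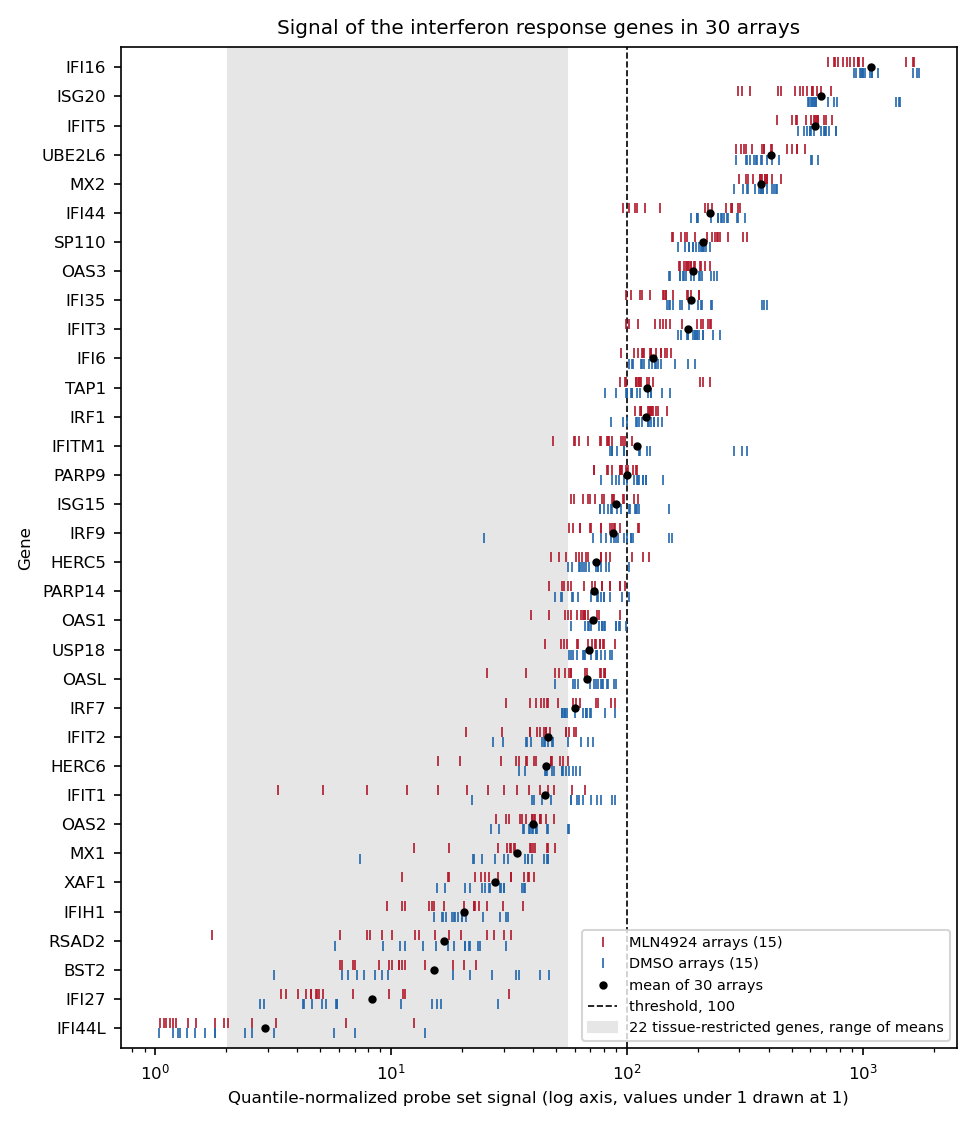
Quantile-normalized signal (log axis) of the 34 measured interferon response genes, 1 row per gene, with a tick for each of the 15 MLN4924 arrays (above) and 15 DMSO arrays (below) and a dot for the mean of all 30. The grey band is the range of means of 22 tissue-restricted genes (2.03 to 55.87); 14 members have a mean at or above the dashed threshold of 100.

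Over time, members came to differ between MLN4924 and DMSO mostly as decreases, and nearly all calls came at 8 and 24 h. At 1 h none of the 34 was called (0.00506% of all genes were) and none had an unadjusted p under 0.05. At 2 h none was called (0.551% of all genes) and 3 had an unadjusted p under 0.05. Counts at an unadjusted p, here and further on, are given without the share of all genes at that threshold and are descriptions only. At 4 h 1 member was called, IFI16, which was lower (3.39% of all genes, 1.57% lower). At 8 h 7 members were called, all lower (20.6% of the members, against 15.2% of all genes called, 6.81% lower and 8.37% higher). At 24 h 14 members were called (41.2%, against 34% of all genes). Of these 11 were lower (32.4%, against 18.1% of all genes) and 3 higher (8.82%, against 15.9%). The median log2 change of the 34 members was -0.02, -0.05, -0.07, -0.09 and -0.20 at 1, 2, 4, 8 and 24 h, while that of all genes was between -0.01 and 0.00. The split of all called genes depended on the scaling: 61.5%, 53.8% and 55.1% of them were higher at 2, 4 and 8 h, and 70.5%, 67.7% and 77.7% were when arrays were centred on their medians in place of quantile normalization, which moved the median of all genes to 0.08 at 8 h.

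The calls at 24 h were also counted by level. Among the 14 well-expressed members 7 were called (50%), against 59.7% of the 8614 genes above the same threshold. Among the 20 members near background 7 were called (35%), against 14.1% of 11161 such genes. These counts are descriptions, since the mean over all arrays includes the groups compared: IFITM1, 1 of the 7 called, passes the threshold through its DMSO 24 h arrays (mean 305), while its other group means lay between 59.9 and 112. Taken over all 5 times with an F test, 15 members were called (32.6% of all genes). At 24 h the 3 MLN4924 arrays lay below the 3 DMSO arrays for 14 members (23% of all genes) and above them for 4 (21.6%). At 8 h they lay below for 10 (12.9%) and above for 2 (15.1%). At 4 h, where 1 member was called, they lay below for 9 (10.7%) and above for 3 (10.1%). In these bulk samples, fewer cells of a type and less RNA per cell cannot be told apart.

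**Figure D2:**
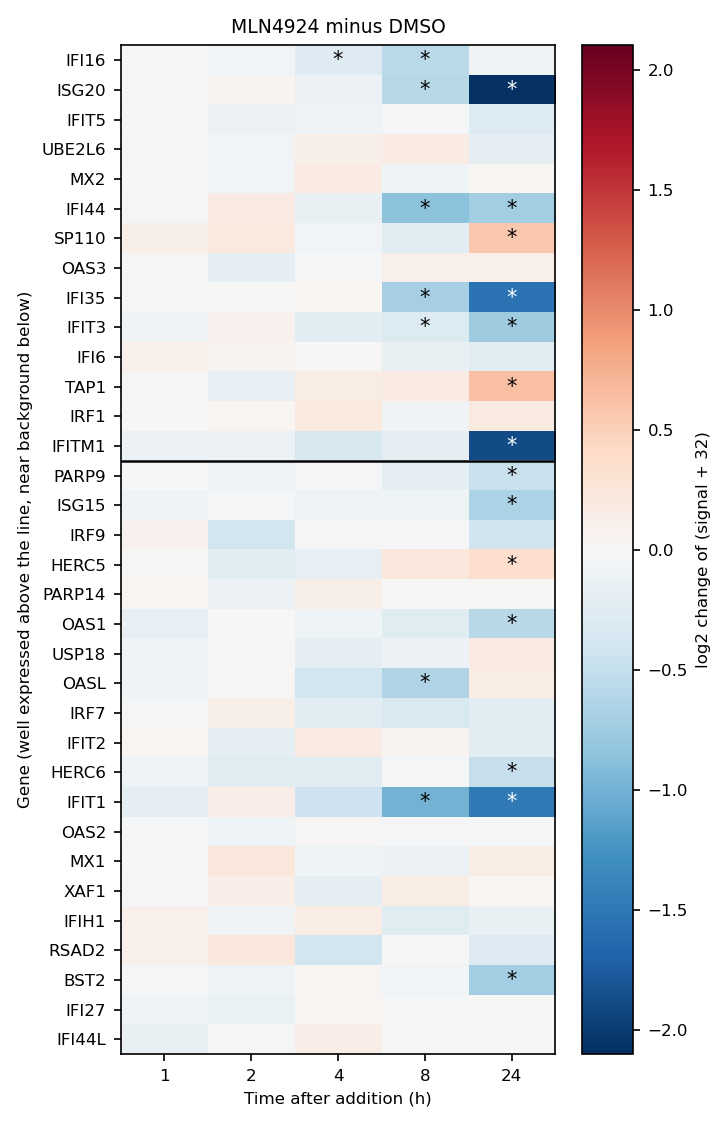
Log2 change of (signal + 32), MLN4924 minus DMSO, for each member (rows, by mean signal) at each time (columns); asterisks mark an adjusted p under 0.05 in limma. Most columns before 8 h are pale, and ISG20 (-2.07), IFITM1 (-1.88) and IFI35 (-1.56) are the darkest cells at 24 h, while SP110 (0.57) and TAP1 (0.63) are red.

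Both membrane effectors were lower at 24 h. IFITM1 is a transmembrane protein that restricts virus entry. Its signal was 48.4, 68.4 and 62.8 in the MLN4924 arrays of 24 h, against 306, 323 and 286 in the DMSO arrays of 24 h. The groups were far apart, a difference of -1.88 on the log2 scale (SE 0.13, adjusted p = 1.03e-11), whereas at 8 h they overlapped, at 94.2, 84.3 and 105 with MLN4924 and 113, 97.6 and 126 with DMSO. The 1 probe set used for IFITM1 is of a type that can also detect related transcripts, and the IFITM genes are close in sequence, so the share of IFITM1 itself is uncertain. BST2 (tetherin), which holds budding virus at the cell surface, was near background, at 10.8, 20.3 and 6.21 with MLN4924 and 46.6, 34.0 and 42.9 with DMSO at 24 h, a difference of -0.73 on the log2 scale (SE 0.17, adjusted p = 0.00155).

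Among the tetratricopeptide proteins that bind viral RNA, IFIT1 and IFIT3 fell with MLN4924 and IFIT2 and IFIT5 were not called. IFIT3 had signals of 138, 132 and 142 with MLN4924 at 8 h, against 169, 191 and 165 with DMSO. At 24 h they were 102, 111 and 99.6 with MLN4924 and 198, 194 and 195 with DMSO. In both cases every MLN4924 array was lower than every DMSO array, and the log2 change was -0.29 at 8 h (adjusted p = 0.0108 from limma) and -0.74 at 24 h (2.67e-08). The 8 h call was lost when DMSO 8 h replicate 2 was left out (adjusted p = 0.0708) and when only the 6 arrays concerned were fitted (0.0815). IFIT1 is dim: its signal was 7.93, 11.7 and 34.3 with MLN4924 and 58.2, 61.2 and 77.4 with DMSO at 8 h, and 5.16, 20.9 and 3.3 with MLN4924 and 89.3, 86.5 and 75.0 with DMSO at 24 h. The MLN4924 arrays were spread over the range of tissue-restricted genes while all DMSO arrays of 8 and 24 h lay above it, with log2 changes of -1.0 (SE 0.22, adjusted p = 0.00223) and -1.49 (SE 0.22, adjusted p = 5.43e-06). IFIT5 was well expressed, with a mean of 631 and log2 changes between -0.29 and 0.01 over the 5 times, and IFIT2 averaged 46.35 with changes between -0.22 and 0.17.

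Neither dynamin-like GTPase passed the test at any time, and of the 4 measured genes of the OAS family, whose active enzymes make the activator of RNase L, OAS1 and OASL did, each at 1 time. MX2, which blocks HIV and herpesviruses at the nucleus, was well expressed (mean 371), and its log2 changes ran from -0.09 to 0.17. MX1 was near background (mean 34.08, changes from -0.13 to 0.24). OAS3 was well expressed (mean 190.1, changes from -0.19 to 0.11) and OAS2 was near background (mean 39.9, changes from -0.09 to 0.02). OAS1 fell at 24 h, with signals of 39.2, 46.8 and 54.6 with MLN4924 against 78.5, 89.7 and 90.3 with DMSO, a difference of -0.59 on the log2 scale (SE 0.12, adjusted p = 0.000203). OASL, a catalytically inactive relative, was lower at 8 h, with 37.2, 25.6 and 54.9 with MLN4924 against 78.8, 83.0 and 69.7 with DMSO, a difference of -0.64 on the log2 scale (SE 0.14, adjusted p = 0.00189). Its groups overlapped at 24 h, at 78.0, 66.4 and 67.4 with MLN4924 and 59.4, 73.8 and 49.6 with DMSO (log2 change 0.15, adjusted p = 0.474 from limma). Read from their other probe sets, neither OAS1 at 24 h (adjusted p = 0.179) nor OASL at 8 h (0.765) was called.

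The ISG15 system did not move in 1 direction. ISG15 itself fell at 24 h: its signal was 69.7, 59.8 and 68.1 with MLN4924 and 151, 108 and 112 with DMSO, a difference of -0.66 on the log2 scale (SE 0.15, adjusted p = 0.000683). Its conjugating enzyme UBE2L6 was well expressed and not called at any time. It had 527, 526 and 571 with MLN4924 and 644, 605 and 613 with DMSO at 24 h, where the arrays did not overlap and the log2 change was -0.19 (SE 0.09, adjusted p = 0.125 from limma). The ligase HERC5 rose at 24 h, to 117, 125 and 105 with MLN4924 against 67.1, 102 and 84.2 with DMSO, a difference of 0.35 on the log2 scale (SE 0.10, adjusted p = 0.00895). The neighbouring gene HERC6, whose product is the main ISG15 ligase in mice, was lower at 48.0, 15.9 and 33.8 with MLN4924 against 63.6, 48.9 and 57.0 with DMSO (-0.48, adjusted p = 0.0277). The gap between the HERC6 groups was narrow, from 48.0 to 48.9, and the call ended without any 1 of DMSO 24 h replicates 1 (adjusted p = 0.101) and 3 (0.0647) and MLN4924 24 h replicate 2 (0.234). The HERC6 call also ended with the mean of its probe sets (-0.20, adjusted p = 0.279) and when only the 6 arrays concerned were fitted (0.1). Adjusted over the 5 comparisons together, its p was 0.0757. A dimmer HERC6 probe set (mean 10.11) gave 0.08 at 24 h, and the F test over all times did not call HERC6 (adjusted p = 0.133). HERC5 lost its call when DMSO 24 h replicate 1 was left out (0.0932) and when only the 6 arrays concerned were fitted (0.0712). USP18, the ISG15 protease, averaged 69.16 and was not called, with log2 changes between -0.19 and 0.18. UBA7, which activates ISG15, was not analysed here.

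None of the 3 transcription factors measured was called between treatments. IRF1 was well expressed (mean 120.9), with 114, 114 and 123 with MLN4924 and 101, 111 and 85.3 with DMSO at 24 h, arrays that did not overlap, and a difference of 0.19 on the log2 scale (SE 0.09, adjusted p = 0.0926 from limma). IRF9 averaged 87.7 and had 86.1, 113 and 77.7 with MLN4924 and 97.4, 155 and 150.4 with DMSO at 24 h (-0.41, adjusted p = 0.078). IRF7, which drives later interferon alpha genes, averaged 60.38 with changes from -0.31 to 0.12.

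IFI16, a DNA sensor of the nucleus and cytoplasm, was the earliest member called. Its signal was 859, 785 and 822 with MLN4924 against 1003, 1020 and 979.8 with DMSO at 4 h, a difference of -0.28 on the log2 scale (SE 0.06, adjusted p = 0.00594). At 8 h it was 762, 711 and 756 with MLN4924 and 1094, 1164 and 1075 with DMSO, a difference of -0.56 on the log2 scale (SE 0.06, adjusted p = 1.69e-07). All MLN4924 arrays were below all DMSO arrays at both times, and at 24 h the groups overlapped, at 1633, 1645 and 1523 with MLN4924 and 1734, 1705 and 1628 with DMSO (-0.08, adjusted p = 0.376). The 4 h call ended with median centring (adjusted p = 0.147), with the mean of its probe sets (0.101) and when only the 6 arrays concerned were fitted (0.119). IFIH1 (MDA5), a sensor of long double-stranded RNA, averaged 20.42, with changes from -0.25 to 0.16 and no call.

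ISG20, an exonuclease that degrades single-stranded RNA, had the largest change of any member on the log2(signal + 32) scale. By the plain ratio of mean signals at 24 h, MLN4924 over DMSO, the dim IFIT1 (0.117) and IFITM1 (0.196) were lower than ISG20 (0.22), and with 1 added in place of 32 IFIT1 changed by -3.34 and ISG20 by -2.18. Its signal was 450.4, 516 and 439.5 with MLN4924 against 776, 633 and 756 with DMSO at 8 h, and 297, 308 and 332 with MLN4924 against 1383, 1444 and 1421 with DMSO at 24 h. The arrays were apart at both times and widely so at 24 h, with a difference of -0.59 on the log2 scale (SE 0.09, adjusted p = 4.21e-05) at 8 h and a difference of -2.07 on the log2 scale (SE 0.09, adjusted p = 3.38e-15) at 24 h. IFI35, a cytoplasmic protein that binds NMI, had 116, 146 and 114 with MLN4924 and 227, 208 and 229 with DMSO at 8 h. At 24 h it had 99.2, 126 and 104 with MLN4924 and 375, 394 and 379.9 with DMSO. Every MLN4924 array was again below every DMSO array, with log2 changes of -0.69 (SE 0.11, adjusted p = 8.24e-05) and -1.56 (SE 0.11, adjusted p = 3.86e-11).

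IFI44, an antiviral protein found with microtubules, had 102, 139 and 119 with MLN4924 against 228, 254 and 249.6 with DMSO at 8 h, and 108, 111 and 96.5 with MLN4924 against 187, 198 and 201 with DMSO at 24 h. The arrays did not overlap at either time, and the log2 change was -0.87 at 8 h (adjusted p = 5.88e-08) and -0.73 at 24 h (1.43e-07, both limma). Another, dimmer IFI44 probe set gave 0.06 at 8 h and -0.42 at 24 h. PARP9, which forms a ligase complex with DTX3L, was lower at 24 h, with 72.6, 93.2 and 86.3 with MLN4924 against 143, 121 and 120.4 with DMSO, a difference of -0.47 on the log2 scale (SE 0.10, adjusted p = 0.000846). A PARP9 probe set nearly as bright (mean 91.8) was called lower at 8 h as well, so the onset depends on the probe set. PARP14, a mono-ADP-ribosyltransferase, averaged 72.28, with changes from -0.13 to 0.12 and no call.

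SP110, a nuclear body protein, and TAP1, a subunit of the transporter that carries peptides to MHC class I, were the 2 well-expressed members that rose. SP110 had 268, 323 and 310.1 with MLN4924 and 196, 177 and 202 with DMSO at 24 h, a difference of 0.57 on the log2 scale (SE 0.10, adjusted p = 8.72e-05). TAP1 had 226, 211 and 205 with MLN4924 and 140.4, 113 and 127 with DMSO at 24 h, a difference of 0.63 on the log2 scale (SE 0.11, adjusted p = 6.77e-05). In both genes all MLN4924 arrays of 24 h were above all DMSO arrays. At 8 h TAP1 stood at 111, 114 and 112 with MLN4924 and 81.1, 105 and 106 with DMSO (adjusted p = 0.398 from limma) and SP110 at 156, 170.4 and 157 with MLN4924 and 183, 183 and 212 with DMSO (0.189).

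The remaining effectors were not called at any time. IFI6, a mitochondrial and endoplasmic reticulum protein, was well expressed (mean 129.7), with 149, 154 and 139.9 with MLN4924 and 182, 159.7 and 194 with DMSO at 24 h (-0.23, adjusted p = 0.0967 from limma). IFI27 (log2 changes from -0.14 to 0.04), IFI44L (-0.15 to 0.14), XAF1 (-0.20 to 0.15) and RSAD2 (viperin, -0.41 to 0.22) lay within the range of tissue-restricted genes.

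**Figure D3:**
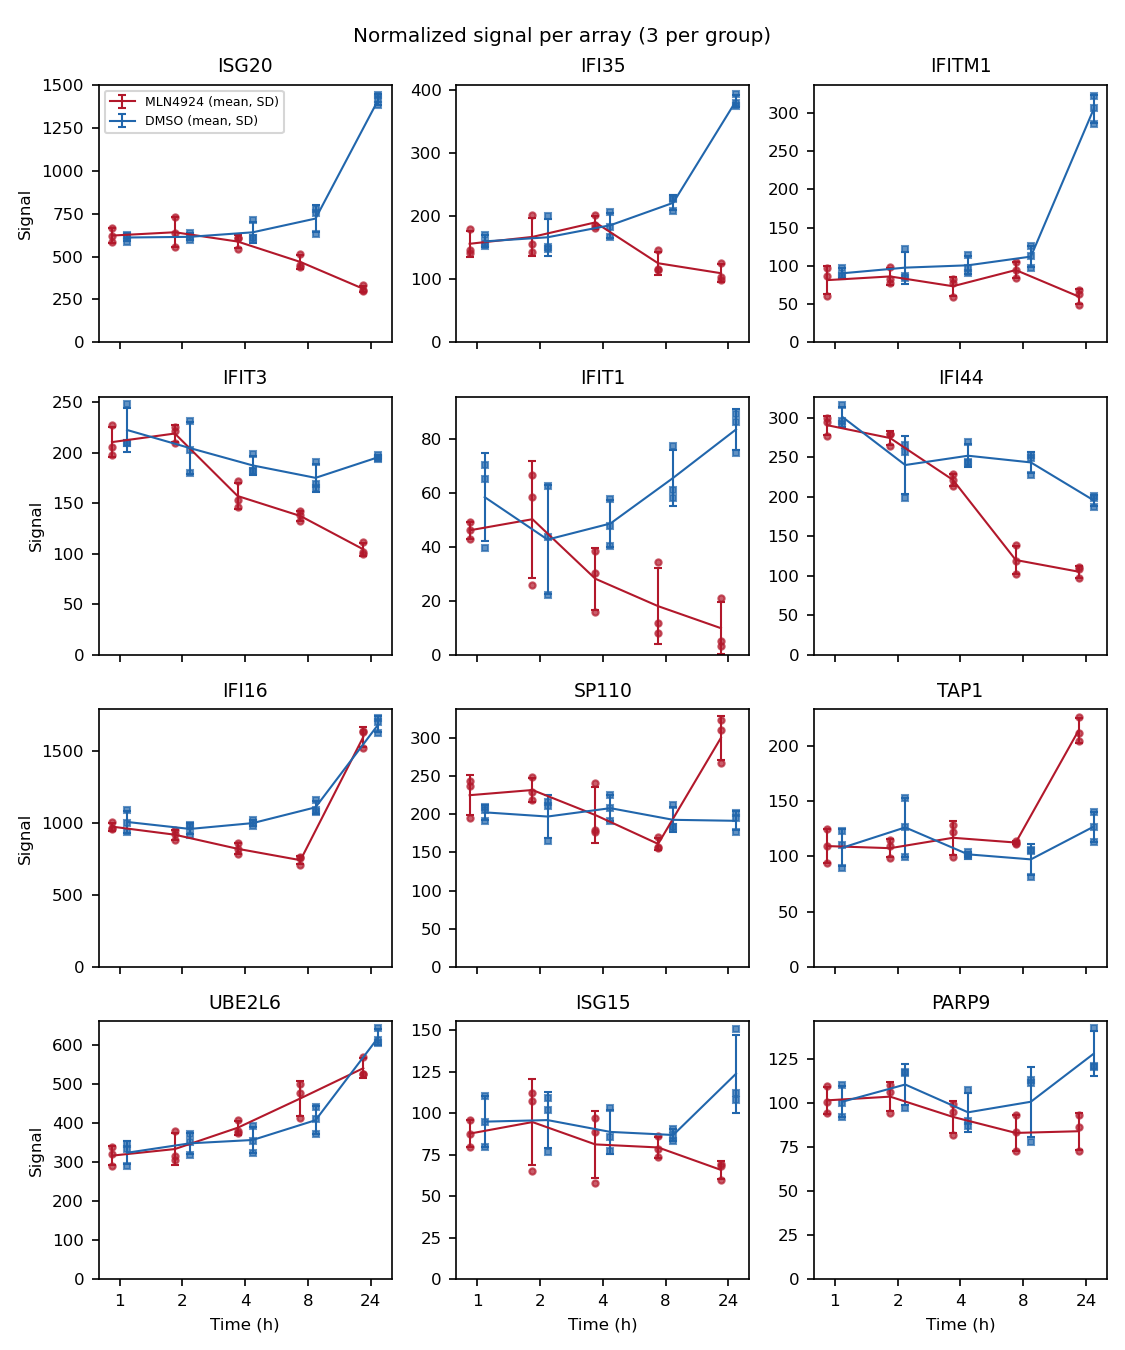
Normalized signal (linear axes from 0) of 12 members at 1, 2, 4, 8 and 24 h, with points for single arrays and lines and bars for the mean and SD of 3 arrays, MLN4924 in red and DMSO in blue. In ISG20, IFI35 and IFITM1 the DMSO line climbs between 8 and 24 h while the MLN4924 line does not. IFIT3 and IFI44 lie lower in all MLN4924 arrays from 4 h, though they were called only from 8 h. SP110 and TAP1 lie higher with MLN4924 at 24 h.

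Many members also changed with time in DMSO alone. From DMSO 1 h to DMSO 24 h, 8 members rose (23.5%, against 9.91% of all genes called higher) and 3 fell (8.82%, against 8.47% called lower), 11 called in all (18.4% of all genes). Those that rose were IFITM1 (1.46), ISG20 (1.17), IFI35 (1.11), IRF9 (0.93), UBE2L6 (0.88), BST2 (0.79), IFI16 (0.73) and IFI6 (0.52), and those that fell were IFI44 (-0.55), MX2 (-0.34) and IRF1 (-0.26). ISG20 had 1383, 1444 and 1421 in DMSO at 24 h, against 629, 586 and 619.8 in DMSO at 1 h, 2 ranges far apart. Between DMSO 1 h and DMSO 8 h no member was called in limma (1.26% of all genes), and 7 had an unadjusted p under 0.05. The IRF1 call ended in 7 of its alternatives, among them those without DMSO 1 h replicate 2 (adjusted p = 0.112) or 3 (0.13) and without DMSO 24 h replicate 1 (0.0682) or 3 (0.218), and that of IRF9 when only the arrays concerned were fitted (0.078).

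With MLN4924, from 1 h to 24 h, 5 members rose and 7 fell, 12 in all (35.3%, against 29.8% of all genes called, 14.3% higher and 15.5% lower). Those that rose were TAP1 (0.80), UBE2L6 (0.72), IFI16 (0.69), HERC5 (0.52) and SP110 (0.37). Those that fell were IFI44 (-1.24), ISG20 (-0.93), IFIT1 (-0.93), IFIT3 (-0.83), IFI35 (-0.41), OAS1 (-0.36) and MX2 (-0.29). The OAS1 call was lost with the mean of its probe sets (-0.17, adjusted p = 0.267) and without MLN4924 1 h replicate 3 (0.0825) or MLN4924 24 h replicate 1 (0.102), and its other probe set gave 0.02 (0.949). These within-treatment changes use the same 24 h arrays as the treatment comparison, so they are given side by side and not as further support.

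Set side by side, the members followed several courses. ISG20 and IFI35 were lower at 24 h than at 1 h with MLN4924 and higher at 24 h than at 1 h with DMSO, so at 24 h both changes enter the difference between treatments. IFITM1 stood at 48.4, 68.4 and 62.8 with MLN4924 at 24 h and 86.9, 96.6 and 60.5 with MLN4924 at 1 h, ranges that overlapped (log2 change -0.30, adjusted p = 0.0827 from limma), while with DMSO it stood at 306, 323 and 286 at 24 h and 86.4, 97.5 and 86.9 at 1 h. BST2, too, was called higher with time in DMSO (0.79) and was not called with MLN4924 (0.11, adjusted p = 0.724). IFIT1 and IFIT3 were called lower with time in MLN4924 and were not called in DMSO (0.37 and -0.16). UBE2L6 and IFI16 rose with time under both treatments, and IFI44 and MX2 fell under both.

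**Figure D4:**
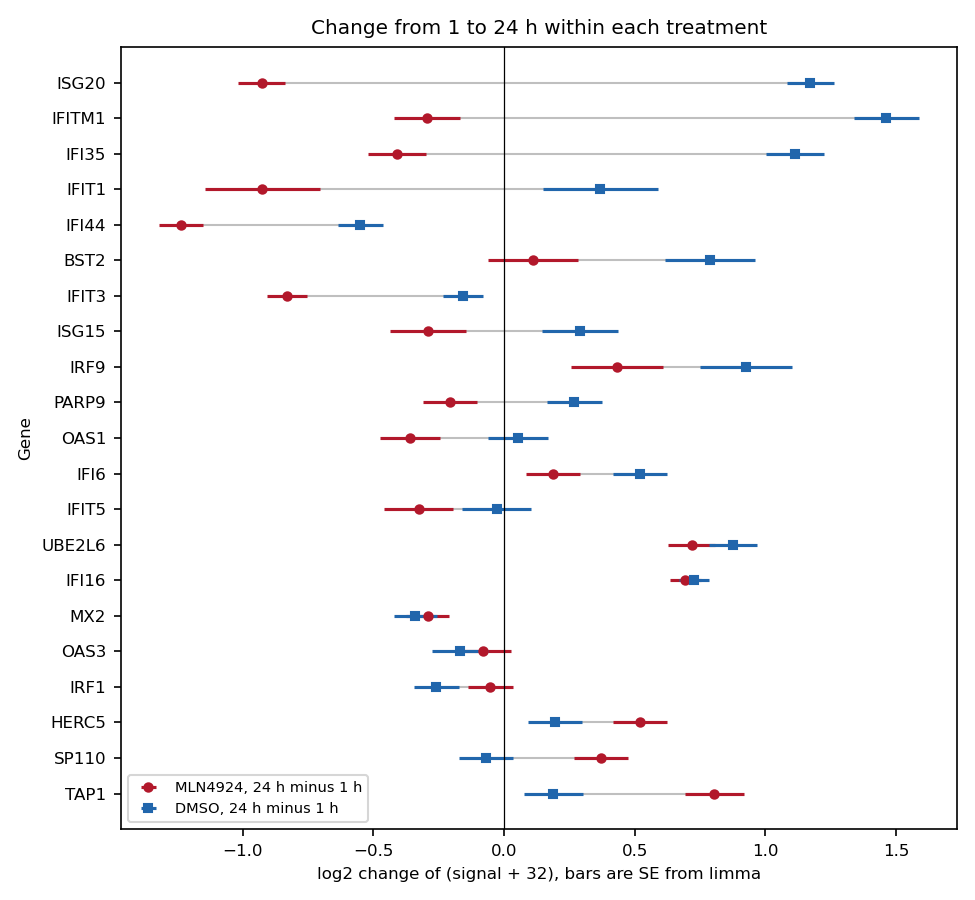
Log2 change of (signal + 32) from 1 h to 24 h within MLN4924 (red circles) and within DMSO (blue squares), with SE from limma, for 21 members. These are the 14 well-expressed members and BST2, IRF9, ISG15, IFIT1, OAS1, HERC5 and PARP9. HERC6, called between treatments at 24 h, is not drawn, and IRF9 was not called in that comparison. ISG20, IFI35 and IFITM1 have their 2 points farthest apart, UBE2L6, IFI16 and MX2 have them close together, and in TAP1, SP110 and HERC5 the MLN4924 point lies to the right.

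Whether the MLN4924 effect itself changed between consecutive times was tested within the same limma fit. No member's effect changed from 1 to 2 h (0.147% of all genes) or from 2 to 4 h (0.491%), where 0 and 4 members had an unadjusted p under 0.05. From 4 to 8 h it moved down for IFI35 (-0.72, adjusted p = 0.016) and IFI44 (-0.70, 0.00185), 2 members in all (1.57% of all genes, 0.794% downwards). IFI44 lost this call with the mean of its probe sets (-0.15, adjusted p = 0.618) and reversed without its _s_at probe set (0.40, 0.357). IFI35 lost it with the ACTB ratio as covariate (0.0553) and without DMSO 4 h replicate 1 (0.0544) or MLN4924 8 h replicate 1 (0.0524). From 8 to 24 h it changed for 8 members (23.5%, against 19.5% of all genes, 8.21% upwards and 11.2% downwards). It moved down for IFITM1 (-1.69), ISG20 (-1.49), IFI35 (-0.86) and IFIT3 (-0.45), and up for SP110 (0.79), OASL (0.78), IFI16 (0.48) and TAP1 (0.47). OASL and IFI16 were lower with MLN4924 at 8 h, and their groups overlapped at 24 h. The IFIT3 change was not called with the mean of its probe sets (-0.13, adjusted p = 0.352), nor that of OASL with its other probe set (0.19, 0.525). The TAP1 change (adjusted p = 0.0413) ended in 11 of its alternatives, 9 of them without 1 array, where the adjusted p lay between 0.0611 and 0.111.

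Probe sets of 1 gene did not always give the same picture. Of the 59 probe sets, 21 had a mean of at least 100. Fitted over all 54675 probe sets, 1 was called at 4 h (2.05% of all probe sets), 13 at 8 h, all lower (9.74%), and 20 at 24 h, 15 lower and 5 higher (24.8%). Both ISG20 probe sets were lower at 24 h (-2.07 and -2.44), and all 3 for IFI16 were lower at 8 h (-0.56, -0.60 and -0.89). Both for PARP9 were lower at 24 h, but by different amounts (-0.47 and -1.13). At 8 h the PARP9 probe set used gave -0.20 (adjusted p = 0.298 from limma) and the other -0.75 (5.72e-05). For IFIT3 the brighter gave -0.74 at 24 h and the other -0.09 (adjusted p = 0.587 from limma). For OASL the one used gave -0.64 at 8 h and the other -0.08. Of the 5 for SP110, 3 were called higher at 24 h, and 2 of those had been called lower at 8 h (-0.39 and -0.41). IFIT2, not called with its brighter probe set, had -0.54 at 24 h with the other (adjusted p = 0.00531). IRF1 was called at 4 h with neither probe set. The one used gave 0.20 (adjusted p = 0.357 from limma) and the other, with a mean of 19.99, gave 0.84 (0.0809). The probe sets that stand for IFI16, SP110, IFI44, OASL, OAS1, ISG15, IFI35, TAP1, IFIT5 and IRF7 are, like that of IFITM1, of types that can hybridize to more than 1 transcript. A further 2 probe sets, shared by IFITM1 with IFITM2 and by IRF9 with RNF31, were not used.

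The rest of the interferon pathway was read from a list of 130 other genes, of which 119 were measured. No gene of it was called at 1 h (0.00506% of all genes were) or at 2 h (0.551%). At 4 h 2 were lower, AIM2 and DTX3L (1.57% of all genes were lower). At 8 h 6 were higher (8.37% of all genes) and 14 lower (6.81%), 16.8% called in all against 15.2% of all genes. At 24 h 14 were higher (11.8%, against 15.9% of all genes) and 31 lower (26.1%, against 18.1%), 37.8% in all against 34%. At 24 h the median log2 change of the 119 was -0.01, against 0.00 for all genes. None of the 18 measured interferon genes was called at 24 h, and 3 of them had an unadjusted limma p under 0.05. IFNB1 had 1.47, 2.54 and 1.23 with MLN4924 and 4.09, 2.12 and 2.23 with DMSO at 24 h, near the lowest mean among the tissue-restricted genes. The receptor subunits IFNAR1 (101, 87.7 and 92.5 with MLN4924 and 87.8, 85.0 and 119 with DMSO) and IFNAR2 (131, 117 and 157 with MLN4924 and 136, 176 and 131 with DMSO) overlapped between treatments at 24 h. Of the 6 receptor genes 3 were lower at 24 h (18.1% of all genes were): IFNGR2 (-1.54), IFNLR1 (-1.05) and IFNGR1 (-0.39). IL10RB, which serves the interferon lambda receptor, was lower at 8 h (-0.46).

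IFNGR2, the signalling chain of the interferon gamma receptor, was the most changed of these. It had 464, 492 and 545 with MLN4924 against 1510, 1497 and 1533 with DMSO at 24 h, groups far apart (adjusted p = 4.47e-13 from limma). JAK1 was lower, with 401, 354 and 394 with MLN4924 against 643, 551 and 634 with DMSO (-0.63, adjusted p = 4.54e-06), and TYK2 had 197, 192 and 195 with MLN4924 against 199.8, 201 and 214 with DMSO (-0.06, 0.8). STAT3 was lower at 8 h (-0.72). Of 7 other interferon regulatory factors and their partners 3 were higher at 24 h, the corepressors IRF2BP2 (1.00) and IRF2BP1 (0.57) and the factor IRF8 (0.42), and IRF5 was higher at 8 h (0.34). Of 6 inhibitors of signalling, SOCS3 (-0.48) and PIAS1 (-0.29) were lower and the phosphatase PTPN11 (0.17) higher at 24 h, and PTPN2 (0.36) was higher at 8 h. Of 14 sensors and adaptors, 3 were lower and 3 higher at 24 h. Of all genes 18.1% were lower and 15.9% higher at 24 h, and counts in roles of so few genes are descriptions. The DNA sensor AIM2 was lower (-2.28), as was the adaptor MAVS (-0.71, and -0.78 at 8 h), while the double-stranded RNA receptor TLR3 (0.65) and the kinase TBK1 (0.63) were higher. UBA3, a subunit of the enzyme that MLN4924 inhibits, was lower at 24 h (-0.61). NEDD8 itself had 2467, 2502 and 2325 with MLN4924 and 2821, 2744 and 2795 with DMSO at 24 h (-0.20, adjusted p = 0.0136).

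Genes of antigen processing and presentation, which interferon gamma induces together in many cells, went in both directions. Of 15 beside TAP1, 1 was higher (6.67%, against 15.9% of all genes) and 7 were lower (46.7%, against 18.1%) at 24 h. TAP2, the partner of TAP1 in the peptide transporter, was higher, with 258, 336 and 361 with MLN4924 against 201, 185 and 196 with DMSO (0.62, adjusted p = 1.85e-06 from limma). TAPBP (tapasin), which joins the transporter to MHC class I, was lower, with 96.6, 95.8 and 103 with MLN4924 against 224, 226 and 221 with DMSO (-0.97, 2.9e-07). PSMB9, an immunoproteasome subunit, was lower too, with 227, 224 and 252 with MLN4924 against 387, 384 and 389 with DMSO (-0.65, 1.05e-07). In these 3 genes the groups did not overlap, and TAPBP and PSMB9 were also called higher with time in DMSO (0.44 and 0.71). CIITA, the regulator of MHC class II genes, was lower at 8 h (-0.92) and 24 h (-0.80). Chosen after their values were seen, B2M (-0.27), HLA-B (-0.50) and HLA-C (-0.36) were lower at 24 h, and PSMB8 was not called (0.06). Of 46 other interferon targets, 6 were higher (13%, against 15.9% of all genes) and 13 lower (28.3%, against 18.1%) at 24 h, the largest changes being those of the guanylate-binding proteins GBP2 (-1.96) and GBP1 (-0.94), SAMD9 (-1.20) and the antiviral TRIM22 (1.36). GBP2 had 16.8, 23.1 and 33.5 with MLN4924 and 182, 213 and 167 with DMSO, and TRIM22 had 109.6, 132 and 129 with MLN4924 and 36.3, 21.0 and 28.8 with DMSO.

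**Figure D5:**
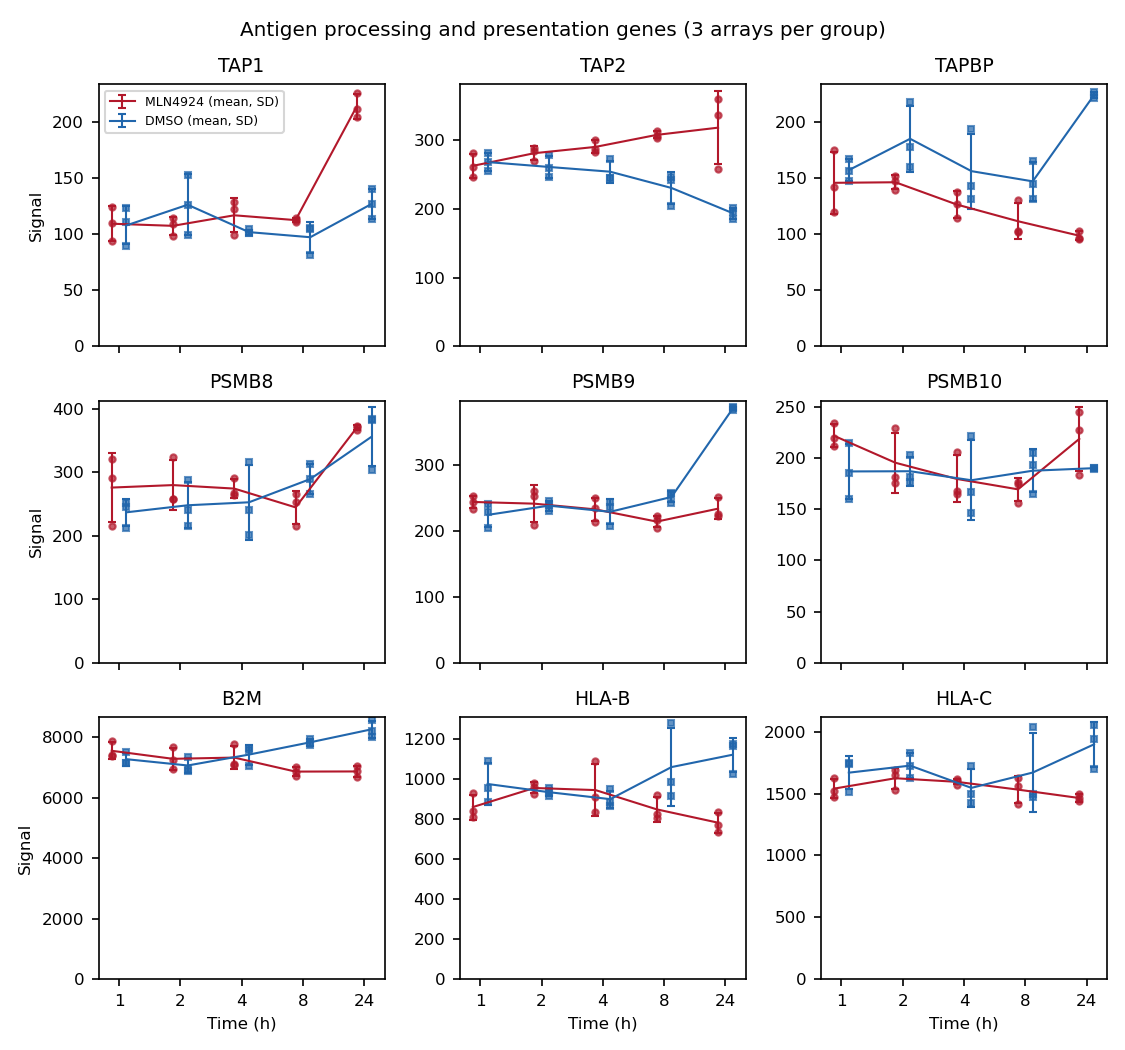
Normalized signal (linear axes from 0) of 9 genes of antigen processing and presentation at 1, 2, 4, 8 and 24 h, with points for single arrays and lines and bars for the mean and SD of 3 arrays, MLN4924 in red and DMSO in blue. TAP1 and TAP2 lie higher with MLN4924 at 24 h, TAPBP and PSMB9 lie lower, B2M, HLA-B and HLA-C are slightly lower, and PSMB8 and PSMB10 overlap.

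Genes beside a member in the genome (order from the GRCh38.p14 assembly) moved with it in some places and against it in others. IFITM2 (-0.83) and IFITM3 (-0.93), on either side of IFITM1, were lower at 24 h as IFITM1 was. The IFITM1 probe set can also detect related transcripts, so these readings may not be independent. DTX3L, which overlaps PARP9, was lower (-0.91), with 274, 283 and 259 with MLN4924 and 527, 570.4 and 516 with DMSO. CMPK2, beside RSAD2, was lower (-0.71), while RSAD2 was too dim to compare. TAP1 and PSMB9, which lie 488 bases apart, moved in opposite directions (0.63 and -0.65). AEN, a nuclease gene beside ISG20, was higher by 1.46 where ISG20 was lower by 2.07 on the log2 scale. AIM2, next to IFI16, had 48.0, 55.4 and 50.6 with MLN4924 and 408, 364 and 350.3 with DMSO at 24 h, where IFI16 was not called.

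Markers of cell identity moved with the same comparison. At 24 h the summed signal of the 9 measured melanocyte markers was 1249 to 1293 in the MLN4924 arrays, against 2848 to 3125 in the DMSO arrays. The sum turned on S100B (61.4 with MLN4924 and 981 with DMSO on average) and SOX10 (396 with MLN4924 and 873 with DMSO), while MITF (350.1 with MLN4924, 365 with DMSO) and TYR (45.3 with MLN4924, 46.0 with DMSO) overlapped. That of the 6 epithelial markers was 4790 to 5074 with MLN4924, against 2215 to 2358 with DMSO. KRT18 makes up most of it (4672 with MLN4924 and 2031 with DMSO), KRT14 was lower (49.7 with MLN4924 and 89.2 with DMSO), and EPCAM and CDH1 had group means of at most 14.2. The sum of the 5 myeloid markers, of which only LYZ had a mean of at least 100, was 169 to 185 with MLN4924, against 462 to 475 with DMSO. That of the 5 fibroblast markers was 259 to 298 with MLN4924, against 362 to 407 with DMSO. The lymphocyte markers overlapped, at 213 to 260.4 with MLN4924 and 199 to 296 with DMSO. Their part in the differences of the interferon response genes was not tested. The ACTB 3′ to 5′ ratio averaged 1.293 with MLN4924 and 1.288 with DMSO at 24 h.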

How the data were processed

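The series holds 30 HG-U133 Plus 2.0 microarrays (Affymetrix) of A375 RNA, from 2 treatments at 5 times with 3 arrays each. The deposited values are linear intensity values per probe set that the authors made with Affymetrix Expression Console, per the submitters' processing notes; the sources used here name neither its version nor the summary method. The trimmed mean of each array, without 2% at each end, was 150.02. Array medians lay between 32.6 and 44, and the number of arrays limits the precision.

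Arrays were quantile-normalized and analysed as log2(signal + 32). Of the probe sets, 41097 had 1 symbol, 1801 had several and 11777 had none; those with 1 symbol gave 19775 genes, each read from its probe set with the highest mean. All 30 arrays entered 1 limma fit of the 10 groups (R 4.3.3, limma 3.58.1, 20 residual degrees of freedom), with Benjamini-Hochberg adjustment over all genes in each comparison. The members and lists were chosen with earlier results of these data known. All 34 members are accounted for. Array values are given for called members (for dim ones at the time of the smallest adjusted p, with other times added where groups overlapped). Up to 4 called genes per role of the wider pathway are named by size, with a few named whatever their values. Tested on simulated data for MLN4924 minus DMSO at 24 h over 19775 genes, the fit called 33 of 60 genes changed by 0.5 on the log2 scale, 66 of 68 changed by 1 and 72 of 72 changed by 2. No other genes were changed, a far smaller share than the 34% called at 24 h in the data, and the noise was independent between genes. These rates therefore do not give the sensitivity of the real comparison. The alternatives were other pseudocounts, scalings, filters, probe set choices, limma settings, a replicate block, an ACTB ratio covariate, separate fits and leaving out each array.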

Additional observations from a re-analysis of the deposited data

Results flagged for a closer look

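For 9 members the MLN4924 effect differed between consecutive times by the test of that difference in limma, over all genes. From 4 to 8 h it changed by -0.72 for IFI35 (adjusted p = 0.016) and by -0.70 for IFI44 (0.00185). IFI44 lost this with the mean of its probe sets (-0.15, adjusted p = 0.618) and reversed without its _s_at probe set (0.40), and IFI35 lost it under 3 alternatives (0.0524 to 0.0553). From 8 to 24 h it moved down by -1.69 for IFITM1 (1.15e-07), -1.49 for ISG20 (4.7e-09), -0.86 for IFI35 (0.000218) and -0.45 for IFIT3 (0.00369). Over the same interval it moved up by 0.79 for SP110 (0.000286), 0.78 for OASL (0.00446), 0.48 for IFI16 (0.000103) and 0.47 for TAP1 (0.0413). Of these, IFIT3 was not called with the mean of its probe sets (0.352), OASL with its other probe set (0.525) and TAP1 under 11 alternatives. Their causes were not tested.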

How the results depend on the processing

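Of the 22 member calls in the 5 treatment comparisons, 15 were called in the same direction under every alternative run, 6 were lost under at least 1 and 1 reversed. Without probe sets of the _x_at and _s_at types, which by construction removes members read only from such probe sets, IFI44 at 8 h reversed to 0.061, its change from 4 to 8 h to 0.398, and OAS1 from MLN4924 1 h to 24 h to 0.022. Under that alternative the members called numbered 0 lower at 4 h (main 1), 3 lower at 8 h (main 7), 7 lower (main 11) and 1 higher (main 3) at 24 h, 0 for the change from 4 to 8 h (main 2), 2 from 8 to 24 h (main 8), 7 for MLN4924 24 h against 1 h (main 12), 5 higher for DMSO 24 h against 1 h (main 8) and 6 by the F test (main 15). With only genes of mean signal at least 100 they numbered 6 lower at 24 h, 4 for the change from 4 to 8 h, 3 for DMSO 8 h against 1 h (main 0) and 8 by the F test. With median centring there were 0 lower at 4 h, 1 higher at 8 h (main 0) and 1 for DMSO 8 h against 1 h. With the mean of all probe sets there were 1 higher (main 0) and 0 lower at 4 h, 2 for DMSO 8 h against 1 h and 5 lower for DMSO 24 h against 1 h (main 3). Signals as deposited gave 11 lower at 8 h. A fit of only the arrays compared gave 0 lower at 4 h. A pseudocount of 100 gave 4 for the change from 4 to 8 h and 1 for DMSO 8 h against 1 h, and the ACTB ratio as covariate 1 for each. The cause of these shifts was not tested.

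Leaving out 1 array at a time gave 6 to 8 lower at 8 h, 2 to 4 higher and 10 to 12 lower at 24 h, 1 to 3 for the change from 4 to 8 h, 7 to 9 from 8 to 24 h, 11 to 13 for MLN4924 24 h against 1 h, 2 to 3 lower for DMSO 24 h against 1 h and 12 to 16 by the F test. The change from 4 to 8 h fell to 1 member without DMSO 4 h replicate 1 or MLN4924 8 h replicate 1. For OAS1 from MLN4924 1 h to 24 h the call ended without MLN4924 1 h replicate 3 (adjusted p = 0.0825 from limma) or MLN4924 24 h replicate 1 (0.102), and for SP110 without MLN4924 1 h replicate 2 (0.0631).

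Of the other pathway genes, 1 was called at 1 h (main 0) with adjustment over the 5 comparisons together, and 1 at 2 h (main 0) with that, a pseudocount of 100, the filter at 100 or the mean of probe sets. At 4 h (main 2) there were 1 with median centring or only the arrays compared and 4 with the filter, the mean of probe sets, no _x_at and _s_at sets or joint adjustment. At 8 h (main 20) there were 8 with only the arrays compared. Leaving out 1 array gave 0 to 1 at 2 h (1 without DMSO 2 h replicate 3), 0 to 2 at 4 h (0 without MLN4924 4 h replicate 1, 1 without MLN4924 4 h replicates 2 or 3 or DMSO 4 h replicates 1 or 3), 12 to 19 at 8 h (12 without MLN4924 8 h replicate 1) and 38 to 44 at 24 h. Fitted per probe set, 4 h gave 2 with a pseudocount of 100 and 0 with median centring (main 1). A threshold of 50 gave 23 well-expressed members and one of 200 gave 7 (main 14).

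With the replicate number as a block, 11 members were lower and 3 higher at 24 h, and 7 lower at 8 h, the counts of the fit without it; of single members, TAP1 lost its change from 8 to 24 h (adjusted p = 0.0541 from limma). Same-numbered arrays of both treatments did not deviate together (correlations of -0.106 to 0.073, none of 15 over 0.1). At 3 arrays a group, dim members near 100 or below are measured with little signal over background.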
